A study of Oryctolagus cuniculus with 8 samples.

Results

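A set of 10 potassium channel subunit genes was examined across 8 arrays of cultured rabbit cells: KCNA5, KCNC1, KCND2, KCND3, KCNE1, KCNH2, KCNJ8, KCNJ11, KCNK1 and KCNS3. They were taken as the 10 rabbit KCN genes whose RefSeq accessions were matched to probes, which gave 34 of the 43603 probes on the array and 10 of the 680 genes that could be named. The cells were of the Dutch rabbit strain. The late passage induced pluripotent stem (iPS) cells were the line iPS-L1, generated from liver cells, at passage 23 and the line iPS-S1, generated from stomach cells, at passage 22. The early passage iPS cells were the same lines at passage 7 (iPS-L1) and passage 6 (iPS-S1). The embryonic stem (ES) cells were the lines rdES4 and rdES2-1, and the somatic cells were 1 culture of liver cells and 1 of stomach cells. iPS cells are body cells reprogrammed to a state like that of ES cells, and the labels used here do not name the reprogramming factors. Stem cell medium was used for the iPS and ES lines and somatic cell medium for the liver and stomach cells, so cell type and medium cannot be told apart. Each of the 4 groups held 2 arrays, each iPS tissue of origin is represented by 1 line, and nothing states that arrays came from separate animals. The p-values thus measure only the spread between these samples. That spread mixes differences between lines and between tissues with technical ones, and cannot be read as a spread between animals.

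Potassium channels let potassium ions leave or enter the cell along their gradient and so set the resting membrane potential and end electrical signals. The pore is built from subunits of a few families: voltage-gated subunits open on depolarization, inward rectifiers and the tandem-pore leak channels act near rest, and accessory or silent subunits change the channels they join without conducting on their own. In pluripotent and proliferating cells, membrane potential is tied to cell volume and to the cell cycle.

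Levels are given as the log2 of the background-subtracted signal divided by the 75th percentile of its own array, so that 0 is that percentile. That percentile corresponded to a signal of between 296.7 and 341 in the iPS arrays, between 273.8 and 310.1 in the ES arrays, and between 154.4 and 163.4 in the somatic arrays. A probe counted as detected where the scanner software marked it well above background, which held for 62.34% to 63.94% of probes in iPS cells, 63.97% to 64.63% in ES cells and 57.76% to 58.39% in somatic cells. POU5F1, a transcription factor of pluripotent cells, had levels of 7.08 to 7.62 in iPS cells and 6.69 to 7.14 in ES cells, against -3.62 and -3.46 in somatic cells. The summed level of the 4 named fibroblast and mesenchyme markers was 1.06 to 1.65 in iPS cells, 0.91 to 1.14 in ES cells and 6.73 to 7.63 in somatic cells, and that of the 5 named smooth muscle markers was 4.94 to 5.62, 4.66 to 5.16 and 6.62 to 7.99 in the same order. DCN, a fibroblast proteoglycan, was not well above background on any iPS or ES array, and neither were the hepatocyte genes ALB and APOA1 or the gastric acid pump gene ATP4B on any of the 8 arrays. The other 5 of the 7 named hepatocyte markers were well above background on all 8 arrays and 2 of the 3 named gastric markers on 7 or 8, with summed hepatocyte levels of 1.78 to 2.02 in iPS cells, 2.13 to 2.57 in ES cells and 2.22 to 4.32 in somatic cells, and gastric ones of -2.88 to -2.35, -2.55 to -2.46 and -3.06 to -2.66. The part of these marker differences in the channel results was not tested, and in these bulk samples fewer cells of a type and less RNA per cell cannot be told apart. The arrays lay on 3 slides: slide 1 held rdES4, both passages of iPS-L1 and the liver cells and was scanned on another day than slides 2 and 3, slide 2 held rdES2-1 and the stomach cells, and slide 3 held both passages of iPS-S1.

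Detection on both arrays of at least 1 group made 27 of the 34 probes eligible for testing, and all 10 genes had at least 1 tested probe. The probe with the highest mean level stood for its gene. By that probe, 4 genes (KCNA5, KCNC1, KCNE1 and KCNH2) were detected on every one of the 8 arrays. The other 6 entered the test through ES or iPS arrays and none through the somatic arrays. With no such filter the same number of genes was called in each comparison. All 10 genes were tested with or without the filter, so that unchanged count cannot show what this way of entry did to the calls. Probes of 1 gene share its transcript and are not replicates of a condition. They gave like differences for KCND2, KCNH2, KCNJ8 and KCNS3, whereas KCNC1 and KCNE1 had probes that disagreed. The 5 other probes of KCNC1, a voltage-gated subunit known from fast-firing neurons, were well above background on no array, so its values rest on 1 probe of 6. KCNA5, KCND3 and KCNJ11 had a single probe.

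**Figure D1:**
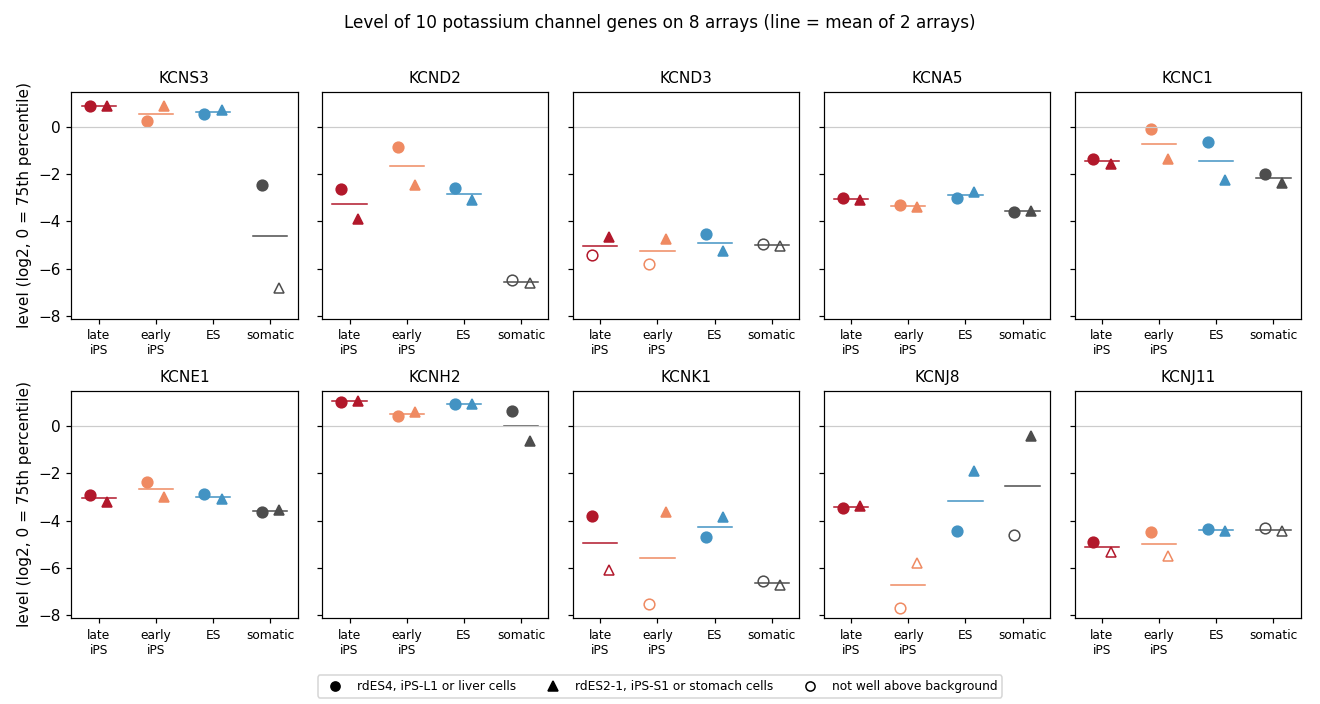
Level of each of the 10 genes on each of the 8 arrays, on a log2 scale where 0 is the 75th percentile of the array. The columns are late iPS, early iPS, ES and somatic cells, circles mark rdES4, iPS-L1 or liver cells, triangles mark rdES2-1, iPS-S1 or stomach cells, open symbols are not well above background and lines are means of 2 arrays; KCND2 and KCNS3 lie higher on every iPS and ES array than on either somatic array.

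The first comparison asked which channel genes differed between the reprogrammed lines and the cells of the tissues they were made from. Between iPS and somatic cells, 4 of the 10 genes rose (KCNS3, KCND2, KCNK1 and KCNE1), none fell and 6 did not pass a limma test with Benjamini-Hochberg adjustment over all 28848 tested probes at an adjusted p under 0.05, while 5 had an unadjusted p under that value. Among all 507 tested named genes 22.1% were higher and 45.8% lower (67.9% in either direction), and among all tested probes 34.2% were higher and 32.4% lower (66.6%). The median difference was 0.74 over the 10 genes, -0.62 over the named genes and 0.02 over all tested probes. Both passages of a line were averaged, so that n is 2 lines for iPS, 2 lines for ES and 2 cultures for somatic cells.

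KCNS3 encodes a silent voltage-gated subunit that does not form a channel alone and modifies the voltage-gated channels it joins. Its level was 0.88 in late iPS-L1, 0.89 in late iPS-S1, 0.23 in early iPS-L1 and 0.85 in early iPS-S1. In the ES lines it was 0.55 in rdES4 and 0.70 in rdES2-1, against -2.46 in liver cells and -6.79 in stomach cells, an array on which it was not detected. All 6 pluripotent arrays lay within 1 narrow band, and the somatic arrays lay below it and far from each other. KCNS3 averaged 0.71 ± 0.23 in iPS lines and -4.62 ± 3.1 in somatic cells (SD, n = 2 each), and the log2 difference was 5.33 ± 1.37 (SE, limma adjusted p = 0.0200). All 5 of its probes rose, by 4.75 to 5.33. The size depended on the somatic array: the difference was 3.17 without the stomach cells and 7.50 without the liver cells. With each dim value lifted to the lowest signal that counted as detected on its array, it was 4.27 (adjusted p = 0.00308). With the slide as a block the difference was 4.13, and within slide 1 late and early iPS-L1 lay 3.33 and 2.68 above liver cells. iPS-S1 was alone on slide 3, so any slide block leaves iPS-L1 as the only iPS line. A changed iPS value or call there cannot separate the slide from the lost line.

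KCND2 encodes a pore subunit of fast inactivating A-type channels, which carry the transient outward current of heart and neurons. Its level was -2.62 in late iPS-L1, -3.88 in late iPS-S1, -0.84 in early iPS-L1 and -2.48 in early iPS-S1. It was -2.58 in rdES4 and -3.10 in rdES2-1, against -6.48 in liver cells and -6.60 in stomach cells, both not well above background. Every pluripotent array detected KCND2, no somatic array did, and the groups did not overlap. The iPS lines averaged -2.45 ± 1.0 and somatic cells -6.54 ± 0.082 (SD, n = 2 each), a log2 difference of 4.08 ± 0.50 (SE, limma adjusted p = 0.00168), and its 3 probes rose by 2.70 to 4.08. Because the somatic arrays give only a bound, KCND2 was at least 4.38-fold higher in iPS cells by the probe that stands for it. The bounds from its other probes were 3.03-fold and 1.91-fold. Each such bound sets the mean of the detected group against the other group's arrays, each at the lowest signal well above background or at the probe's own signal where that was higher. With the slide as a block, and so with iPS-L1 as the only iPS line, the difference was 4.65. Under normexp, a background correction that adds an offset and so compresses dim signals, it was 0.30 and did not pass (adjusted p = 0.268).

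KCND3, a close relative that carries a transient outward current in heart muscle, gave no called difference under the 75th percentile. Its single probe read -5.41 and -4.64 in late iPS-L1 and iPS-S1, -5.78 and -4.74 in early iPS-L1 and iPS-S1, -4.55 and -5.23 in rdES4 and rdES2-1, and -4.96 and -5.05 in liver and stomach cells. It was well above background on both iPS-S1 arrays and both ES arrays, and on no iPS-L1 or somatic array. The difference between iPS and somatic cells was -0.14 ± 0.38 (SE, limma adjusted p = 0.759), with a sign that turned to 0.16 under quantile normalization. It passed in opposite directions at 0.87 without scaling (adjusted p = 0.044) and at -0.75 under normexp (adjusted p = 0.00125).

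KCNK1 encodes a tandem-pore background channel. Its level was -3.80 in late iPS-L1, -6.07 in late iPS-S1, -7.51 in early iPS-L1 and -3.66 in early iPS-S1, with late iPS-S1 and early iPS-L1 not well above background. It was -4.69 in rdES4 and -3.85 in rdES2-1, against -6.57 in liver cells and -6.71 in stomach cells, both not well above background. Of each iPS line 1 array detected it and 1 did not, and early iPS-L1 lay below both somatic arrays in level, so the iPS and somatic ranges overlapped. Before scaling, its signal was 1.9 in early iPS-L1, 1.7 in liver cells and 1.5 in stomach cells, so this order of undetected values came with the scaling. The difference between iPS and somatic cells was 1.38 ± 0.38 (SE, limma adjusted p = 0.0259). Averaging the passages of a line leaves the spread between its 2 arrays out of this standard error.

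KCNK1 passed in 10 of 18 alternatives, in 1 of them (normexp) in the opposite direction. The call held under quantile normalization (2.20, adjusted p = 0.00536), without scaling (2.39, 0.00201), without either ES line and by the median of its tested probes. The limma adjusted p was 0.0898 without early iPS-S1 (difference 0.77), 0.682 without late iPS-L1 (0.45), 0.054 without late iPS-S1 (1.98), 0.0646 without liver cells (1.45) and 0.083 without stomach cells (1.31), and without early iPS-L1 the call held at 2.31 (0.00809). With the slide as a block, which leaves iPS-L1 as the only iPS line, the difference was 1.16. The limma adjusted p was 0.331 with the line as a random block over all 8 arrays. With dim values raised the difference was 0.03 (adjusted p = 0.919), and under normexp KCNK1 was lower in iPS cells, by a log2 difference of -0.58 (adjusted p = 0.00156).

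KCNE1 encodes an accessory subunit that slows the delayed rectifier formed by KCNQ1. It read -2.91 and -3.23 in late iPS-L1 and iPS-S1, -2.36 and -3.02 in early iPS-L1 and iPS-S1, and -2.90 and -3.10 in rdES4 and rdES2-1, against -3.65 in liver cells and -3.55 in stomach cells. All 8 arrays detected it, and the somatic arrays were the lowest. The difference between iPS and somatic cells was 0.72 ± 0.21 (SE, limma adjusted p = 0.0282), a 1.65-fold change. Its other probe differed by -0.54 without passing (adjusted p = 0.141), the median of both probes differed by 0.09 (adjusted p = 0.754), and under normexp the standing probe was lower in iPS cells by a log2 difference of -0.29 (adjusted p = 0.0445). The call was lost when rdES4 (adjusted p = 0.0517), rdES2-1 (0.0514), early iPS-S1 (0.0573), liver cells (0.0847) or stomach cells (0.0598) were left out, and with the slide as a block (0.0731), at differences of 0.67 to 0.94.

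**Figure D2:**
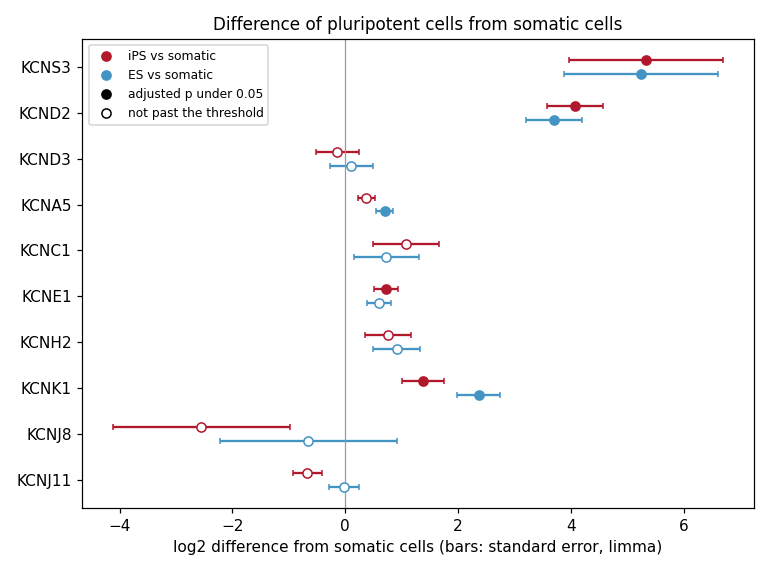
Log2 difference from somatic cells of each gene in iPS cells and in ES cells, with bars for the standard error from limma and filled points for an adjusted p under 0.05. KCNS3 (5.33 in iPS cells, 5.25 in ES cells) and KCND2 (4.08 and 3.70) lie farthest to the right, and KCNJ8 has the widest bars.

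The remaining voltage-gated genes did not pass between iPS and somatic cells. KCNA5, a delayed rectifier subunit best known from the atrium of the heart, read -3.02 and -3.11 in late iPS-L1 and iPS-S1, -3.29 and -3.38 in early iPS-L1 and iPS-S1, and -3.02 and -2.74 in rdES4 and rdES2-1, against -3.60 and -3.55 in liver and stomach cells. Every pluripotent array was above both somatic arrays, by small amounts. The iPS difference was 0.37 ± 0.15 (SE, limma adjusted p = 0.0767). It passed under quantile normalization at 0.56 (adjusted p = 0.0277) and turned to -0.41 (adjusted p = 0.0066) under normexp.

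KCNH2, the pore subunit of the rapid delayed rectifier of heart muscle, read 1.02 and 1.03 in late iPS-L1 and iPS-S1, 0.41 and 0.57 in early iPS-L1 and iPS-S1, and 0.92 and 0.91 in rdES4 and rdES2-1, against 0.63 in liver cells and -0.63 in stomach cells. The early iPS arrays lay just below the liver cells, and the stomach cells lay below all other arrays. The iPS difference was 0.76 ± 0.41 (SE, limma adjusted p = 0.162), with 0.71 to 0.81 over its 5 probes, and it was 1.39 and passed without liver cells (adjusted p = 0.00241), and 0.12 without stomach cells (adjusted p = 0.473). KCNC1 differed by 1.08 ± 0.58 (SE, limma adjusted p = 0.154), by 0.77 to 1.39 with 1 array left out, and passed at 1.08 without rdES4 (adjusted p = 0.0477) or rdES2-1 (0.0475). On its 1 detected probe it read -1.36 and -1.58 in late iPS-L1 and iPS-S1, -0.11 and -1.36 in early iPS-L1 and iPS-S1, and -0.65 and -2.26 in rdES4 and rdES2-1, against -2.01 and -2.36 in liver and stomach cells. rdES2-1 lay between the somatic arrays, so the ES and somatic ranges overlapped, whereas all 4 iPS arrays lay above both somatic arrays.

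The ES lines were then compared with the same somatic arrays. The iPS and ES comparisons share these 2 arrays, so their values are given side by side only. Between ES and somatic cells, 4 of the 10 genes rose (KCND2, KCNS3, KCNK1 and KCNA5), none fell and 6 did not pass, with 5 at an unadjusted p under 0.05. Among the named genes 21.3% were higher and 42.8% lower (64.1% in either direction), and among all tested probes 34.2% were higher and 29.7% lower (63.9%). The median difference was 0.71 over the 10 genes, -0.44 over the named genes and 0.07 over all tested probes.

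KCND2 averaged -2.84 ± 0.37 in ES lines and -6.54 ± 0.082 in somatic cells (SD, n = 2 each), a log2 difference of 3.70 ± 0.50 (SE, limma adjusted p = 0.00237), and 0.09 under normexp (adjusted p = 0.734). This amounts to at least 3.35-fold by its standing probe, and to at least 1.87-fold and 1.61-fold by its other probes. KCNS3 averaged 0.62 ± 0.10 and -4.62 ± 3.1 in ES and somatic cells, a difference of 5.25 ± 1.37 (SE, limma adjusted p = 0.0219). The KCNS3 difference was 3.08 without stomach cells and 7.41 without liver cells, and it no longer passed without rdES4 (adjusted p = 0.0873) or rdES2-1 (0.0931). On 1 slide, rdES4 lay 3.01 above liver cells in KCNS3 and rdES2-1 lay 7.48 above stomach cells, and in KCND2 these differences were 3.90 and 3.5. Both genes thus differed in the same direction within each of the slides that held an ES and a somatic array.

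KCNK1 was well above background in both ES lines and averaged -4.27 ± 0.59, against -6.64 ± 0.097 in somatic cells (SD, n = 2 each). The difference was 2.37 ± 0.38 (SE, limma adjusted p = 0.00436), or at least 1.25-fold by its standing probe and 1.31-fold and 1.2-fold by its other tested probes. Its tested probes entered the test only through the ES arrays, and the 2 other probes were not well above background on rdES4, so the probes' agreement is partly set by the filter. It was 0.32 with dim values raised (adjusted p = 0.361) and -0.43 under normexp (adjusted p = 0.00661), and it did not pass without late iPS-L1 (adjusted p = 0.0706) or with the line as a random block (0.161). KCNA5 averaged -2.88 ± 0.19 in ES lines and -3.58 ± 0.033 in somatic cells (SD, n = 2 each), a difference of 0.70 ± 0.15 (SE, limma adjusted p = 0.0114), 0.56 without rdES2-1 (adjusted p = 0.0522), 0.70 with the slide as a block (adjusted p = 0.0579) and -0.17 under normexp.

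The other genes did not pass in ES cells. KCNE1 differed by 0.60 ± 0.21 (SE, limma adjusted p = 0.0505), with adjusted p = 0.021 without early iPS-L1, 0.0387 without late iPS-S1 and 0.0307 under quantile normalization, and it turned to -0.30 under normexp. KCNH2 differed by 0.91 ± 0.41 (SE, limma adjusted p = 0.109), by 1.54 (adjusted p = 0.00189) without liver cells and by 0.28 without stomach cells, where it did not pass. KCNC1 differed by 0.73 ± 0.58 (SE, limma adjusted p = 0.315), by 1.53 (adjusted p = 0.0393) without rdES2-1 and by -0.08 (adjusted p = 0.88) without rdES4. KCND3 differed by 0.11 ± 0.38 (adjusted p = 0.805), it passed at 0.99 without scaling (adjusted p = 0.0288), and its sign turned without rdES4 (-0.23), with raised dim values (-0.30) and under normexp (-0.56, adjusted p = 0.00495).

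**Figure D3:**
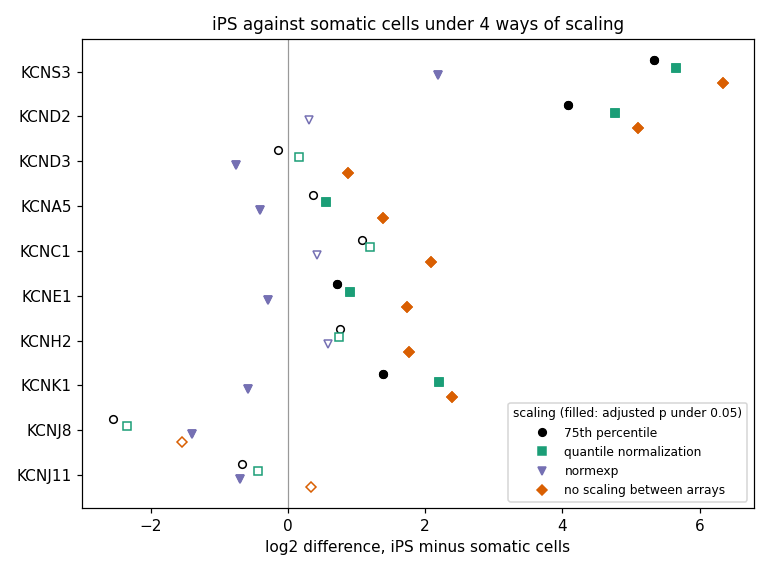
Log2 difference between iPS and somatic cells of each gene under 4 ways of scaling the arrays: the 75th percentile, quantile normalization, normexp and no scaling, filled where the adjusted p was under 0.05. KCNS3 lies right of 0 and is filled under all 4, whereas KCNK1, KCNE1 and KCNA5 lie left of 0 under normexp.

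The somatic arrays were dimmer as a whole, and the small differences depended on the scaling. The median difference of all tested probes between iPS and somatic cells was 0.016 under the 75th percentile, 0.111 under quantile normalization, -0.402 under normexp and 1.027 without scaling. Relative to that median, KCNS3 differed by 5.31, 5.55, 2.58 and 5.31 in this order, and KCND2 by 4.06, 4.65, 0.70 and 4.07. KCNE1 differed by 0.70, 0.79, 0.11 and 0.70 relative to it, and KCNK1 by 1.36, 2.09, -0.18 and 1.36. KCNS3 and KCND2 thus kept their direction under all 4 scalings, and KCNK1 turned under normexp.

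KCNJ8 and KCNJ11 encode the pore subunits of the ATP-sensitive potassium channels, which open when cellular energy falls and are completed by sulfonylurea receptors. KCNJ8 read -3.48 in late iPS-L1, -3.40 in late iPS-S1, -7.67 in early iPS-L1 and -5.79 in early iPS-S1, with both early arrays not well above background. It read -4.46 in rdES4 and -1.93 in rdES2-1, against -4.62 in liver cells, not well above background, and -0.45 in stomach cells. The stomach cells were the highest array and rdES2-1 the next, and both lay on slide 2. With the slide as a block the KCNJ8 difference from somatic cells was -1.37 in iPS cells, by iPS-L1 alone, against -2.55 without the block. In ES cells it was -0.66 with and without the block. Slides 1 and 2 each held 1 ES and 1 somatic array, so the block could not change that ES difference. Whether the slide set the high values of stomach cells and rdES2-1 was not tested.

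The groups overlapped for KCNJ8. The iPS lines averaged -5.08 ± 0.69, the ES lines -3.20 ± 1.8 and the somatic cells -2.53 ± 2.9 (SD, n = 2 each), and the difference between iPS and somatic cells was -2.55 ± 1.57 (SE, limma adjusted p = 0.202), with -2.97 to -2.55 over its 5 probes. Without liver cells it was -4.63 and passed (adjusted p = 0.0264), as it did at -1.40 under normexp (adjusted p = 0.0417), and without stomach cells it was -0.47 (adjusted p = 0.74). Between ES and somatic cells the difference was -0.66 ± 1.57 (SE, limma adjusted p = 0.731), with a sign that turned to 0.60 without rdES4, to 1.42 without stomach cells and to 0.21 without scaling. KCNJ11 read -4.90 and -5.33 in late iPS-L1 and iPS-S1, -4.50 and -5.48 in early iPS-L1 and iPS-S1, and -4.37 and -4.43 in rdES4 and rdES2-1, against -4.30 and -4.46 in liver and stomach cells. It was well above background on both iPS-L1 arrays and both ES arrays, and on no iPS-S1 or somatic array. Before scaling, the KCNJ11 signal was 11.4 and 15.0 in late and early iPS-L1 and 7.4 and 6.8 in late and early iPS-S1. In liver and stomach cells it was 8.3 and 7.0. The lower level of iPS-L1 than of liver cells thus came with the scaling of an undetected somatic value. The scaled differences of KCNJ11 from somatic cells were -0.67 ± 0.26 (SE, limma adjusted p = 0.0667) in iPS cells and -0.02 ± 0.26 (adjusted p = 0.949) in ES cells. Under normexp both passed, at -0.70 in iPS cells (adjusted p = 0.00103) and -0.49 in ES cells (adjusted p = 0.0054). The iPS difference also passed at -0.77 (adjusted p = 0.0233) when early iPS-L1 was left out, and without scaling the differences turned to 0.34 in iPS cells and 0.85 in ES cells, neither past the threshold.

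The sulfonylurea receptor gene ABCC9, whose product joins KCNJ8 in the channels of vascular smooth muscle, was measured on all 8 arrays. Its level was -3.23 and -3.24 in late iPS-L1 and iPS-S1, -3.66 and -3.68 in early iPS-L1 and iPS-S1, and -3.32 and -2.47 in rdES4 and rdES2-1, against 1.09 in liver cells and 3.73 in stomach cells. All pluripotent arrays lay far below both somatic arrays. ABCC9 fell in iPS cells by 5.86 ± 0.88 on the log2 scale (SE, limma adjusted p = 0.00333), a 58.2-fold difference, and in ES cells by 5.31 ± 0.88 (adjusted p = 0.00482), a 39.5-fold difference. Without liver cells the differences were -7.19 and -6.63, and without stomach cells -4.54 and -3.98, for iPS and ES cells in this order. The smooth muscle and fibroblast markers given above were higher in the same somatic arrays, and their part in the ABCC9 difference was not tested.

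Of 70 listed partners and other potassium channel genes, 11 were named on the array and only ABCC9 and KCNMB1 were tested. KCNMB1, an accessory subunit of the large-conductance calcium-activated channel, differed by -0.59 ± 0.28 (SE, limma adjusted p = 0.119) between iPS and somatic cells and by -0.20 (adjusted p = 0.562) between ES and somatic cells. KCNMA1, the pore subunit it joins, was well above background by its standing probe on 1 array, that of the stomach cells. KCNA10, KCNB2, KCNE4 and KCNJ2 were detected on no array, KCNA2 on 1 array by any of its probes and KCNK5 on 2 arrays.

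Between iPS and ES cells none of the 10 genes passed, and 0% of the 507 named genes and of all tested probes did by limma. At an unadjusted p under 0.05 there were 2136 of 28848 probes and 1 of the 10 genes, KCNK1. KCNK1 averaged -5.26 ± 0.56 in iPS lines and -4.27 ± 0.59 in ES lines (SD, n = 2 each), a difference of -0.99 ± 0.38 (SE, limma adjusted p = 0.671). Its standard error again leaves out the spread between the passages of a line. KCNJ8 differed by -1.89 ± 1.57 (SE, adjusted p = 0.842) and KCNJ11 by -0.65 ± 0.26 (SE, adjusted p = 0.671). KCND2 differed by 0.39 ± 0.50 (SE, adjusted p = 0.912), KCNS3 by 0.09 ± 1.37 (SE, adjusted p = 0.995) and KCNH2 by -0.16 ± 0.41 (SE, adjusted p = 0.968). The standard error of KCNS3, which includes the wide spread between liver and stomach cells, would cover a difference of more than 2-fold, so these values do not show that the levels were alike.

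Late passage iPS cells were compared with early passage cells of the same lines, each line on 1 slide at both passages. The main fit did not pair the passages by line. None of the 10 genes passed by limma, against 0% of the named genes and 0.0277% of all tested probes (0.00693% higher and 0.0208% lower, 8 probes, of which none passed with the line as a replicate block). At an unadjusted p under 0.05 there were 2414 probes and 1 of the 10 genes, KCND2. KCND2 averaged -3.25 ± 0.89 in late and -1.66 ± 1.2 in early cells (SD, n = 2 each), a difference of -1.59 ± 0.62 (SE, limma adjusted p = 0.585, and 0.252 with the line as a replicate block). It was lower late than early by 1.79 in iPS-L1 and by 1.40 in iPS-S1, and its 3 probes gave differences of -1.59 to -1.31.

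KCNJ8 went the other way in its values. It was well above background on both late arrays and neither early array, at -3.44 ± 0.060 in late and -6.73 ± 1.3 in early cells (SD, n = 2 each), a difference of 3.29 ± 1.5 (SE, limma adjusted p = 0.624). This amounts to at least 3.79-fold by its standing probe, with bounds of 2.95-fold to 3.78-fold from its other probes. The differences were 4.19 in iPS-L1 and 2.40 in iPS-S1, and they lay between 3.29 and 3.90 over the 5 probes. KCNH2 was 0.61 higher late than early in iPS-L1 and 0.46 higher in iPS-S1, with a mean of 0.53 ± 0.38 (SE, adjusted p = 0.780), and KCNA5 was 0.27 higher in both lines (0.27 ± 0.14 SE, adjusted p = 0.671). With 2 lines, a shift of the same sign in both is no test of passage.

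KCNK1 gave differences of opposite sign in the lines. Late minus early, its level differed by 3.71 in iPS-L1 and by -2.41 in iPS-S1, with a mean of 0.65 ± 1.31 (SE, limma adjusted p = 0.955). Of the iPS arrays, late iPS-L1 and early iPS-S1 were the ones on which all 5 of its probes were well above background. The other differences were 0.34 for KCNS3 (adjusted p = 0.978), -0.73 for KCNC1 (0.819), -0.38 for KCNE1 (0.75), 0.24 for KCND3 (0.947) and -0.12 for KCNJ11 (0.969).

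**Figure D4:**
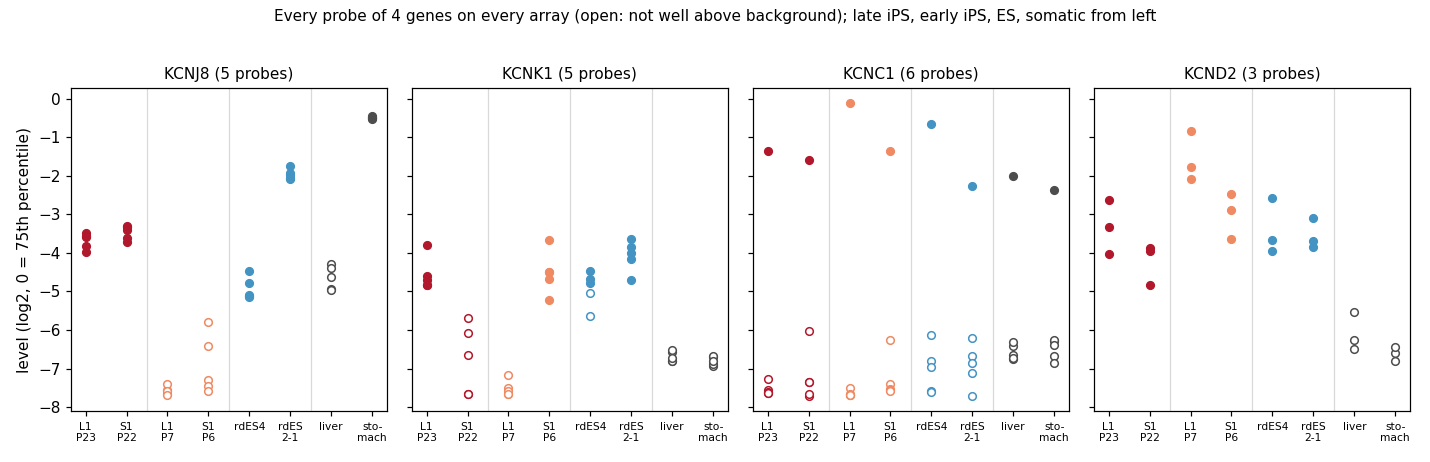
Level of every probe of KCNJ8, KCNK1, KCNC1 and KCND2 on every array, on the log2 scale of the levels, with late iPS, early iPS, ES and somatic arrays from left and open symbols where a probe was not well above background. The 5 probes of KCNJ8 follow each other across arrays, those of KCNK1 are high in late iPS-L1 and early iPS-S1, and 5 of the 6 probes of KCNC1 have open symbols on all arrays.

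To place the potassium channel genes, wider lists of ion transport genes were counted. Of 161 listed genes other than the 10, 57 were named on the array and 36 were tested. Between iPS and somatic cells 9 rose, 12 fell and 15 did not pass, with a median log2 difference of -0.60. Over all 507 tested named genes 22.1% were higher and 45.8% lower there, with a median of -0.62. Between ES and somatic cells the counts of the list were the same, with a median of -0.22. Over the named genes 21.3% were higher and 42.8% lower in ES cells, with a median of -0.44. Among the calcium channel and release genes 2 of 11 rose and 4 fell in iPS cells, and in the list of sodium and related channels none of 6 rose and 2 fell. Of the 3 chloride channel genes 2 rose and 1 fell, and of the 14 pump and exchanger genes 5 rose and 4 fell. No gene of these lists passed between iPS and ES cells or between late and early iPS cells, against 0% of the named genes in either comparison.

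Besides ABCC9, several other genes of these lists fell relative to somatic cells. The calcium channel subunit genes CACNB1 and CACNA2D1 fell by 3.34 and 2.65 on the log2 scale in iPS cells (limma adjusted p = 0.00245 and 0.00293), and in ES cells CACNB1 fell by 2.67 (adjusted p = 0.00532). PLN, the phospholamban that restrains the calcium pump of the reticulum, was detected on 2 of 4 iPS arrays, fell by 3.31 in iPS cells (adjusted p = 0.00227) and was at least 13.8-fold lower in ES cells (adjusted p = 0.00149). Without liver cells the iPS differences were -4.04 for CACNB1 and -3.14 for CACNA2D1, and without stomach cells -2.64 and -2.15. PLN lay between -4.08 and -2.55 in iPS cells, the lowest without late iPS-S1 and the highest without early iPS-S1. In ES cells CACNB1 was at -3.37 without liver cells and -1.97 without stomach cells, and PLN at -3.12 and -4.46.

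CACNA1A, a pore subunit of neuronal calcium channels, rose by 2.04 ± 0.60 in iPS cells (SE, limma adjusted p = 0.0305) and by 2.92 ± 0.60 in ES cells (adjusted p = 0.00969). The iPS call was lost without rdES4 (adjusted p = 0.063), rdES2-1 (0.0628) or late iPS-L1 (0.05) and with the slide as a block (0.108), and the ES call without rdES4 (0.0552). Leaving out 1 somatic culture moved the CACNA1A difference to 1.14 without liver cells and 2.94 without stomach cells in iPS cells, and to 2.02 and 3.82 in ES cells.

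For each of the 5 genes called in a comparison, the named genes with the most similar pattern were found by the Euclidean distance of the centred log2 levels over the 8 arrays. The nearest to KCNS3 were CXADR, a cell adhesion receptor (distance 2.26, r = 0.95), and EDNRB, an endothelin receptor (2.65, r = 0.931). The nearest to KCND2 were SHMT1 (1.76, r = 0.945) and GCSH (2.27, r = 0.917), both of one-carbon and glycine metabolism. The nearest to KCNK1 were TRPC1, a calcium-permeable channel (2.74, r = 0.841), and FGFR2, a growth factor receptor (3.13, r = 0.684). KCNE1 and KCNA5, whose range over arrays was small, lay close to ATP4A (0.47, r = 0.901) and EIF2B2 (0.49, r = 0.89), and to TPMT (0.33, r = 0.933). These likenesses describe 8 arrays that share slides and the contrast of pluripotent with somatic cells.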

How the data were processed

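RNA of 8 rabbit samples was labelled with Cy3 and hybridised to 1-colour Agilent arrays, 1 array a sample. Per the file headers, the deposited intensities came from Feature Extraction 10.5.1.1 after background subtraction and were not scaled between arrays. The authors' value table of the series is on a log2 scale and correlated at 1.0 on every array with the levels computed here after centring each probe, and its column medians lay between -0.042 and 0.342. This table was used as an alternative.

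From the intensities, log2 signal minus each array's 75th percentile over non-control probes was computed, spots of 1 probe were averaged, and 19 probes with outlier marks were left out. None was saturated. Probes well above background on both arrays of a group were tested (28848 of 43603) with limma 3.58.1 in R 4.3.3, two-sided, with Benjamini-Hochberg adjustment over all of them and a threshold of 0.05. For comparisons of cell types, 6 units in 3 groups (both passages of an iPS line averaged) shared 1 estimate of the spread. The passages were compared over all 8 arrays in 4 groups. The fits were tested on simulated data. Of the probes, 1933 were named through the RefSeq table of the assembly mOryCun1.1, used for names only, 99 matched a placeholder name and 41571 stayed unnamed here. The files give no genome build, so no coordinates are printed.

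Named were all 10 genes, up to 6 called genes a comparison with the largest difference from the ion transport lists, the 2 nearest genes of each called gene, and cell type markers. Some of these genes are not reported here. Members and lists were chosen with earlier results of these data known. Early and late passages carry the same line names in the labels, so passages were also fitted paired by line. Deviations of the passages of a line correlated at 0.224 over 28848 probes. Those of iPS lines and their tissue's cells correlated at 0.022 and were not taken as pairs. Alternatives were quantile normalization, normexp (offset 50), no scaling, no filter, the authors' table, the slide as a block, the line as a random block, replicate blocks, the median of a gene's probes, each array left out and, chosen after seeing the data, raised dim values. Normexp used the median signal, the spot signal given in the files beside the background. The number of arrays limits the precision.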

Additional observations from a re-analysis of the deposited data

Results flagged for a closer look

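In scaled level, KCND3 differed in opposite directions in the lines of each tissue of origin. Relative to the cells of their own tissue, its level was lower in iPS-L1, with differences of -0.45 in the late and -0.83 in the early array against liver cells, and higher in iPS-S1, by 0.41 in the late and 0.31 in the early array against stomach cells. The difference between the lines was not tested, and neither the iPS-L1 arrays nor the somatic arrays were well above background for this probe. Before scaling, the KCND3 signal was 8.0 in late and 6.2 in early iPS-L1, against 5.3 in liver cells. In iPS-S1 it was 11.9 late and 11.4 early, against 4.7 in stomach cells. The lower side in iPS-L1 thus came with the scaling of undetected values.

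KCNK1 differed in opposite directions with passage in the lines, by 3.71 (late minus early) in iPS-L1 and by -2.41 in iPS-S1. That difference between the lines was not tested either, and in each line the lower array was not well above background.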

How the results depend on the processing

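Of 180 alternative values of the 10 genes between iPS and somatic cells, 144 kept their direction and side of the threshold, and so did 137 of 170 between ES and somatic cells. None of the 10 genes passed between iPS and ES cells or between late and early cells under any alternative run. The counts of called genes depended on the scaling and the background correction. They also changed with the slide as a block, which leaves iPS-L1 as the only iPS line. Between iPS and somatic cells 4 were called, against 7 under normexp (1 higher, 6 lower), 8 without scaling (all higher), 1 with the slide as a block and 2 to 5 with 1 array left out (2 without early iPS-S1 and 2 without stomach cells). Between ES and somatic cells 4 were called, against 8 without scaling (all higher), 5 under normexp (1 higher, 4 lower) and 3 to 5 with 1 array left out. Reversed under normexp were KCNA5 at -0.41, KCNE1 at -0.29 and KCNK1 at -0.58 in iPS cells, and KCNA5 at -0.17, KCND3 at -0.56, KCNE1 at -0.30 and KCNK1 at -0.43 in ES cells, and KCND3 was at 0.87 in iPS cells without scaling. The cause was not tested.

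Over all probes, 9864 were higher and 9356 lower between iPS and somatic cells, against 7538 and 15198 under normexp, 16899 and 3587 without scaling, and 9520 and 15119 without a filter. Between ES and somatic cells they were 9873 and 8572, against 7359 and 14326, 16559 and 3771, and 9665 and 14517. With the slide as a block 9916 probes were called between iPS and somatic cells and 13 of the ion transport list, against 19220 and 21. That list held 6 higher and 23 lower genes under normexp and 16 and 6 without scaling in iPS cells, and 7 and 21, and 15 and 5, in ES cells. Between iPS and ES cells no probe was called, against 2 without scaling, 6 with the line as a random block and 0 to 35 with 1 array left out. Between late and early iPS cells 8 probes were called, against 0 without a filter, with the slide as a block, with raised dim values and with the replicate block for the line, and 0 to 101 with 1 array left out. The replicate block changed no call of the 10 genes by passage. With a replicate block for the tissue of origin, 5 genes were called between iPS and somatic cells. Of these, 4 were higher and KCNJ11 was lower in scaled level, at a limma adjusted p of 0.0369. The tissue numbers do not pair the samples by the data. Of 96 and 90 alternative values of the 6 ion transport genes with the largest called differences in iPS and in ES cells, 92 and 84 kept their call and none reversed. Signal over background limits KCND3, KCNJ11, KCNK1 and KCNJ8, which were dim on several arrays.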
